A study of Rattus norvegicus with 22 samples.

Results

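The livers of rat embryos at gestational day 20 were compared with whole rat embryos at gestational day 12. The comparison took the 4 embryo liver arrays and the 5 whole embryo arrays of the series, 9 of its 22 arrays, chosen by their tissue and day labels alone. All samples came from Wistar rats, and each was hybridised to 1 single-colour array that measured total RNA. The 4 embryo livers came from litters of dams given EMD 82571 at 50 mg/kg/day (EMD50), EMD 82571 at 150 mg/kg/day (EMD150), retinoic acid at 12 mg/kg/day (code RA56), or labelled control. The 5 whole embryos covered the same treatments, with a further retinoic acid array (codes RA5 and RA56, which the labels do not explain). EMD 82571 belongs to the calcium sensitisers, drugs that make heart muscle react more strongly to calcium. Retinoic acid, made in the body from vitamin A, is a known teratogen. Dams were dosed from day 6, to day 11 or to day 17 by the protocol and to day 17 by the series text. Whether arrays share a dam or litter, or stand for pooled embryos, is not stated, so the p-values below measure only the spread between these arrays.

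The fetal liver is a secretory and metabolic organ in the making and, at the same time, the main site of blood formation. Its hepatocytes release albumin, alpha-fetoprotein and clotting factors into the plasma, while red cell precursors, white cells and platelet precursors mature between them. A rat embryo in mid-gestation is still laying down its neural tube, heart, limbs and cartilage, and its circulating red cells come from the yolk sac and carry embryonic globins. Tissue and gestational day changed together here and cannot be told apart. In bulk RNA, fewer cells of a type and less RNA per cell cannot be told apart either.

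Values are RMA levels on the log2 scale, so that a difference of 1 is 2-fold. Differences are limma's estimates of embryo liver minus whole embryo with treatment as a block, given with their standard error (SE). Means are followed by ± SD, over 4 arrays for embryo liver, embryo bone and maternal liver and 5 for whole embryo. A gene is said to have risen or fallen where the adjusted p was under 0.05 and the difference at least 2-fold. Array medians lay between 8.12 and 8.16 in the embryo livers and between 8.11 and 8.16 in the whole embryos. Over all probe sets, Pearson's r was 0.967 to 0.996 for the 6 pairs of embryo livers and 0.970 to 0.996 for the 10 pairs of whole embryos, against 0.791 to 0.865 for the 20 pairs across tissues. The SD of the array values was 1.51 to 1.64 in the embryo livers and 1.66 to 1.83 in the whole embryos. The GAPDH control probe sets differed between 3′ and 5′ end by 0.57 to 0.86 on these 9 arrays, against 2.72 on the EMD50 array of embryo bone. The actin control probe sets differed by 0.57 to 0.73 in the embryo livers and 0.40 to 0.63 in the whole embryos, and the part of RNA quality in the results was not tested.

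Of 15866 probe sets, 2992 were called, or 18.9%. There were 981 higher in embryo liver (6.18%) and 2011 lower (12.7%). An adjusted p under 0.05 alone was met by 10817 probe sets (68.2%), and the 4 liver and 5 embryo values did not overlap for 9291 (58.6%). Fewer genes rose than fell, but the largest differences were rises. At least 8-fold changes numbered 180 higher and 75 lower, and at least 16-fold changes 82 higher and 15 lower. Among 10411 named genes, each represented by its brightest probe set, 774 rose (7.43%) and 1447 fell (13.9%). The counts of each gene list below are to be read against these shares. Of the called probe sets, 2988 had the same direction within each of the 4 treatments. They were picked by these same differences, so this count follows largely from the selection and is not separate support.

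Alb, the gene of serum albumin, read 14.98, 14.95, 14.96 and 14.93 in the control, EMD50, EMD150 and retinoic acid livers, and 8.59, 9.53, 9.90, 10.19 and 12 in the control, EMD50, EMD150, RA5 and RA56 whole embryos. The livers lay within 0.05 of each other near the top of the scale, and all embryos lay below them, with RA56 nearest. The difference was 5.08 (SE 0.42, adjusted p = 4.8e-06). Afp, the gene of alpha-fetoprotein, the albumin of fetal plasma, read 14.67, 14.63, 14.67 and 14.65 in the livers and 13.78, 12.73, 12.03, 14.23 and 13.52 in the whole embryos, in the same order of treatments. It was already high at day 12, and its difference was 1.49 (SE 0.28, adjusted p = 0.001). Hemgn encodes hemogen, a nuclear protein of blood precursors, and read 9.77, 9.99, 10.47 and 10.69 in the livers against 6.52, 6.62, 6.50, 6.59 and 7.53 in the whole embryos. Its difference was 3.56 (SE 0.19, adjusted p = 3.3e-07), and the groups did not overlap. All 6 measured hepatocyte markers and all 6 measured red cell markers rose, so the tissue label and the markers pointed the same way.

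Plasma proteins made by hepatocytes rose. Of 39 measured genes of this list, 35 rose, none fell and the median difference was 3.73, against 0.07 over all probe sets. A2m, the protease inhibitor alpha-2-macroglobulin, read 14.28, 14.15, 14.34 and 14.30 in the livers and 6.85, 6.88, 6.93, 7.43 and 6.88 in the whole embryos. It showed the largest rise of all named genes, 158-fold. Ahsg, which encodes fetuin-A, a carrier that keeps calcium phosphate in solution, read 14.41, 14.37, 14.29 and 14.35 in the livers and 6.76, 7.38, 7.51, 7.24 and 8.42 in the whole embryos, a 124-fold rise. The embryo values spread over 1.66 log2 units and the livers over 0.12.

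Itih3, a hyaluronan-binding plasma protein, averaged 13.89 ± 0.14 in the livers and 7.08 ± 0.71 in the whole embryos (SD, n = 4 and n = 5). Ambp, the precursor of alpha-1-microglobulin and bikunin, rose 83-fold. Gc, the vitamin D carrier, rose 74.2-fold by its brighter probe set, while the other gave a log2 difference of 2.63. Apoh rose 64-fold and Serpina1, the inhibitor of neutrophil elastase, 53.7-fold. The 4 members that did not pass had differences from -0.70 to 0.63. Igf2, the fetal growth factor, was among them, at 14.18 ± 0.08 in the livers and 13.63 ± 0.22 in the whole embryos with a difference of 0.57 (SE 0.10, adjusted p = 0.00056). Under median and SD scaling it was called, at 1.09, while its dimmer probe sets gave 0.43, 0.33 and 0.28 as deposited. Apoa4, an apolipoprotein of gut and yolk sac, read 9.18, 8.39, 7.97 and 8.58 in the livers and 10.30, 8.14, 7.85, 11.06 and 9.50 in the whole embryos. Its groups overlapped, and the difference was -0.70 (SE 0.37, adjusted p = 0.12).

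**Figure D1:**
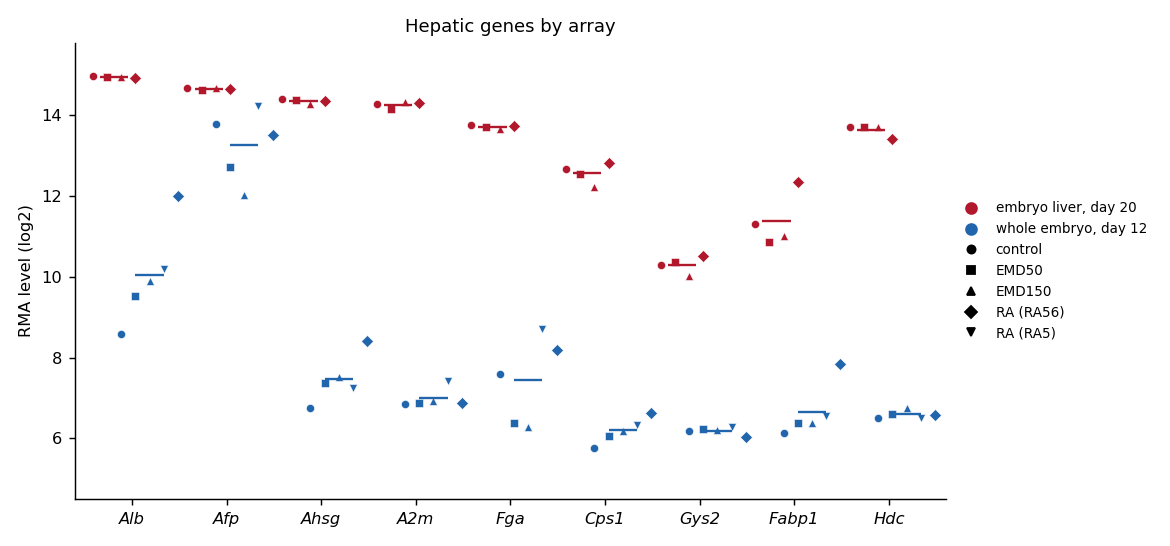
RMA level (log2) of 9 hepatic genes on each array, embryo liver day 20 (red, left) and whole embryo day 12 (blue, right), with symbols for the treatments and a bar at each group's mean. No gene shown had overlapping groups; Alb and Afp were nearest in the RA56 and RA5 embryos, at 12 and 14.23.

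Clotting and complement genes rose as a block. Of 26 measured, 24 rose and none fell, with a median difference of 4.11. Fibrinogen, the protein that forms the clot, is built from 3 chains. Fga read 13.76, 13.70, 13.65 and 13.73 in the livers and 7.59, 6.39, 6.28, 8.71 and 8.20 in the whole embryos. Fgb read 14.05, 14.06, 13.87 and 13.95 in the livers and 7.18, 7.15, 7.29, 8.93 and 7.99 in the whole embryos. Fgg read 14.30, 14.27, 14.28 and 14.23 in the livers and 9.14, 7.56, 6.78, 10.44 and 9.37 in the whole embryos. In the whole embryos all 3 chains were lower in control, EMD50 and EMD150 than in RA5 and RA56. For Fga and Fgg the control lay above EMD50 and EMD150, and for Fgg it was close to RA56 (9.14 and 9.37). For Fgb the control lay between EMD50 and EMD150. The rises were 86.6-fold, 83.9-fold and 55.9-fold. For Fgb, 2 dimmer probe sets gave differences of only 0.66 and 0.37 and were not called. F2, the gene of prothrombin, rose 62.4-fold. C3, the central complement component, read 14.41, 14.36, 14.10 and 14.35 in the livers and 6.23, 7.14, 7.53, 7.72 and 9.37 in the whole embryos, a difference of 6.86 (SE 0.39, adjusted p = 4.3e-07). Cfi, the protease that inactivates it, rose 76.7-fold. The members that did not pass were Pros1 and Serpinf1, with differences of 0.86 and 0.75.

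Promoters of these genes were searched for a motif of liver genes. RefSeq windows (build GRCr8, 250 bases before to 50 after the gene start) were found for 8610 of the 10411 measured genes. The motif searched was GTTAAT on both strands, 1 arm of the palindromic site to which the liver factor HNF1 binds. It was present in 30.0% of 30 plasma protein promoters and 35.0% of 20 clotting and complement promoters. It was present in 23.0% of 113 promoters of genes that rose at least 8-fold and in 4 of 34 promoters (11.8%) of genes that fell as much. The genes that rose at least 8-fold include members of both lists, so their share is not a separate observation. Over all 621 promoters of genes that rose the share was 9.02%, and over 50 neural promoters 8.0%. It was 4.84% over all measured genes and 7.37% over all 27457 promoters of the table. The 3 windows below are shown because albumin, alpha-fetoprotein and fibrinogen are textbook products of the hepatocyte and their windows hold the motif. All lie on the minus strand and are written 5′ to 3′ along the gene, and capitals mark GTTAAT or its reverse complement. The Alb window is chr14:17906930-17907229, the Afp window chr14:17875596-17875895 and the Fgb window chr2:170700826-170701125. The motif starts 82, 135 and 90 bases before the gene start in Alb, Afp and Fgb. A match describes the letters only and is not shown to be a bound site.
Alb: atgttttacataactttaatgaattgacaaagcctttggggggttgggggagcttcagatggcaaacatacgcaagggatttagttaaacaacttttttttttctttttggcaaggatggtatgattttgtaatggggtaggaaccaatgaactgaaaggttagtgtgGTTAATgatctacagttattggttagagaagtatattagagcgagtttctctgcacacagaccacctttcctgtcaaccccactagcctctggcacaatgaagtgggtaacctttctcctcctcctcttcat
Afp: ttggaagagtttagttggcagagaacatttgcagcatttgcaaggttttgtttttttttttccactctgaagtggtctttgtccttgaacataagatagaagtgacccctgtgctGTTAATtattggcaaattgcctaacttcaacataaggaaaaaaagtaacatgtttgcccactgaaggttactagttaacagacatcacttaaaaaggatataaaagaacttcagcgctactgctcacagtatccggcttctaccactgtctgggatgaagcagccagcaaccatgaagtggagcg
Fgb: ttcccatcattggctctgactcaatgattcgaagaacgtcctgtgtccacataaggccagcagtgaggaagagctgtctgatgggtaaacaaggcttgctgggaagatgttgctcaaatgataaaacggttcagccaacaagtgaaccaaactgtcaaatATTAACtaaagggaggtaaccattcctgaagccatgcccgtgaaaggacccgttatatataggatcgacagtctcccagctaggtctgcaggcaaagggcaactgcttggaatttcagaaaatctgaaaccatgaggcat

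Transcription factors that direct hepatocyte genes had smaller differences. Of 27 measured, 12 rose and none fell, with a median of 0.69 and the largest rise at 2.79. Cebpa, a driver of late hepatocyte differentiation, read 8.04, 8.02, 7.03 and 8.21 in the livers and 5.89, 5.97, 5.99, 5.92 and 5.94 in the whole embryos. It was near the low end of the scale in every embryo, and the EMD150 liver read 0.99 below the nearest other liver. Its difference was 1.91 (SE 0.17, adjusted p = 9e-06). Klf15, a factor of fasting metabolism, rose 6.93-fold, Hhex, which liver bud formation needs, 4.9-fold, and Foxa3 4.27-fold. Hnf4a, a nuclear receptor that hepatocyte identity depends on, averaged 9.29 ± 0.15 in the livers and 7.70 ± 0.30 in the whole embryos and rose 3.07-fold. Cebpb read 8.87, 8.83, 7.94 and 8.98 in the livers and 7.51, 5.94, 5.87, 7.16 and 6.58 in the whole embryos. Its embryo values ranged over 1.64 log2 units, yet stayed below every liver. Xbp1, a factor of the secretory pathway, and Gata4, which heart and gut also use, did not pass as deposited, with differences of 0.69 and 0.65. Xbp1 was called after quantile normalization, at 1.0.

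Enzymes that handle nitrogen and amino acids rose. Of 45 measured genes of the urea cycle and amino acid breakdown, 30 rose and none fell, with a median of 1.71. Cps1, which makes carbamoyl phosphate for the urea cycle, read 12.68, 12.55, 12.23 and 12.82 in the livers and 5.77, 6.07, 6.18, 6.34 and 6.63 in the whole embryos. The rise was 86.7-fold, and the embryos lay close to the bottom of the scale. Cth, which makes cysteine from cystathionine, rose 35.8-fold, Bhmt, which remethylates homocysteine, 32-fold, Mat1a, the adult form of methionine adenosyltransferase, 24.2-fold and Hpd, a tyrosine-degrading enzyme, 52.9-fold. Got2, the mitochondrial aspartate aminotransferase of all tissues, was bright in both groups, 12.97 ± 0.25 in the livers and 12.25 ± 0.09 in the whole embryos. It did not pass as deposited, at 0.73, but did under median and SD scaling, at 1.13. Its other probe set gave 0.10.

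Glucose and glycogen genes rose in 17 of 24 cases and fell in 1. Gys2, the liver form of glycogen synthase, read 10.29, 10.36, 10.01 and 10.52 in the livers and 6.18, 6.23, 6.20, 6.29 and 6.03 in the whole embryos, a 17.4-fold rise. Pygl, the liver glycogen phosphorylase that releases glucose from the store, rose 13.5-fold, and Fbp1, an enzyme of glucose synthesis, 29.2-fold. Slc2a2, the glucose transporter of the hepatocyte, read 11.24, 11.12, 10.76 and 11.34 in the livers and 8.37, 6.47, 5.99, 9.68 and 7.76 in the whole embryos. The embryos ranged over 3.69 log2 units, with EMD150 lowest and RA5 highest, and its difference was 3.64 (SE 0.44, adjusted p = 6.6e-05). The gene that fell was Gyg1, the primer of glycogen chains in muscle and other tissues, at 9.25 ± 0.27 in the livers and 10.62 ± 0.17 in the whole embryos, a difference of -1.33 (SE 0.12, adjusted p = 7.7e-06).

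Fatty acid oxidation and ketone body genes rose in 27 of 42 cases and none fell, with a median of 1.31. Fabp1, the fatty acid carrier of the hepatocyte, read 11.32, 10.86, 11.02 and 12.34 in the livers and 6.13, 6.39, 6.38, 6.55 and 7.84 in the whole embryos, a 29.5-fold rise. Acox2, a peroxisomal oxidase of bile acid precursors, rose 9.83-fold, Acsl1, which activates long fatty acids, 6.51-fold and Bdh1, a ketone body enzyme, 5.51-fold. Hadha, of mitochondrial beta-oxidation, did not pass as deposited, with a difference of 0.89, but it did under quantile normalization (1.23) and under scaling to a common median and SD (1.14). Fatty acid and cholesterol synthesis rose in 10 of 39 cases, with a median of 0.47. Lipc, the hepatic lipase, rose 25.9-fold and Insig1, a sensor that restrains cholesterol synthesis, 3.77-fold. Scd2, the desaturase of embryonic tissues, averaged 12.02 ± 0.17 in the livers and 12.05 ± 0.30 in the whole embryos, with a difference of -0.01.

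Drug and steroid metabolism rose in 22 of 59 cases and none fell, with a median of 0.72. Gsta1, a glutathione transferase, read 11.51, 11.66, 11.52 and 12.10 in the livers and 5.83, 5.79, 5.79, 6.29 and 6.66 in the whole embryos, a 52.6-fold rise. Mgst1, its membrane-bound relative, rose 67.3-fold, Adh1c, an alcohol and retinol dehydrogenase, 56.8-fold, Cyp2d2 20.6-fold and Cyp2c23 20.2-fold. Several glutathione transferases and cytochrome P450s are near-identical copies, and probe sets may read more than 1 of them. Gstp1, the glutathione transferase common in fetal and tumour cells, averaged 10.81 ± 0.28 in the livers and 11.54 ± 0.31 in the whole embryos and did not pass, at -0.77 (SE 0.17, adjusted p = 0.0031).

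Bile acid genes and liver transporters rose in 13 of 22 cases, none fell, and the median was 1.09. Slc10a1, the transporter that takes bile acids back up from blood, read 9.05, 8.95, 8.13 and 9.86 in the livers and 5.82, 5.77, 5.86, 5.88 and 5.76 in the whole embryos. The rise was 9.48-fold. Baat, which couples bile acids to glycine or taurine, rose 7.74-fold and Abcb4, which moves phospholipid into bile, 4.06-fold. Cyp7a1, the rate-limiting enzyme of bile acid synthesis, read 10.27, 10.18, 8.45 and 10.11 in the livers and 7.31, 7.58, 7.74, 7.95 and 7.35 in the whole embryos. The groups did not overlap, though the EMD150 liver lay only 0.50 above the RA5 embryo. Its difference was 2.20 (SE 0.30, adjusted p = 0.00014). Slco1b2, an uptake carrier of the hepatocyte, read 9.77, 9.70, 8.49 and 10.32 in the livers and 6.26, 7.17, 7.18, 7.34 and 6.74 in the whole embryos, again with EMD150 lowest of the livers.

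Iron and haem genes rose in 12 of 21 cases and 1 fell. Hp and Hpx, which bind free haemoglobin and haem in plasma, rose 41.9-fold and 32.9-fold. Hamp, the hormone hepcidin that closes the body's iron exporter, read 12.08, 12.25, 11.09 and 12.25 in the livers and 7.27, 7.70, 7.78, 7.87 and 7.36 in the whole embryos, a 20.4-fold rise. Hmox1, which breaks down haem, rose 4.51-fold. Late gestation and glucocorticoid-responsive genes rose in 8 of 25 cases (32.0%) and fell in 2 (8.0%), against 7.43% and 13.9% of all named genes. Igfbp1, a liver-secreted binding protein of insulin-like growth factors, read 12.22, 12.22, 12.61 and 12.33 in the livers and 7.37, 7.33, 6.85, 8.58 and 7.85 in the whole embryos, a 28.7-fold rise. Mt2A, a metallothionein that stores zinc in fetal liver, rose 7.23-fold. Nr3c1, the glucocorticoid receptor itself, averaged 7.92 ± 0.23 in the livers and 6.36 ± 0.14 in the whole embryos and rose 2.96-fold, while a second probe set gave 0.31 and was not called. Tsc22d3, a glucocorticoid target in blood cells, fell by 1.45 on the log2 scale.

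Hdc was the largest rise outside the lists. It encodes histidine decarboxylase, the enzyme that makes histamine, which rat fetal liver is known to form. Hdc read 13.71, 13.70, 13.71 and 13.41 in the livers and 6.50, 6.61, 6.76, 6.51 and 6.58 in the whole embryos. Every embryo sat within 0.26 of the others near the bottom of the scale, and the rise was 129.8-fold, with a difference of 7.02 (SE 0.11, adjusted p = 4.2e-10).

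**Figure D2:**
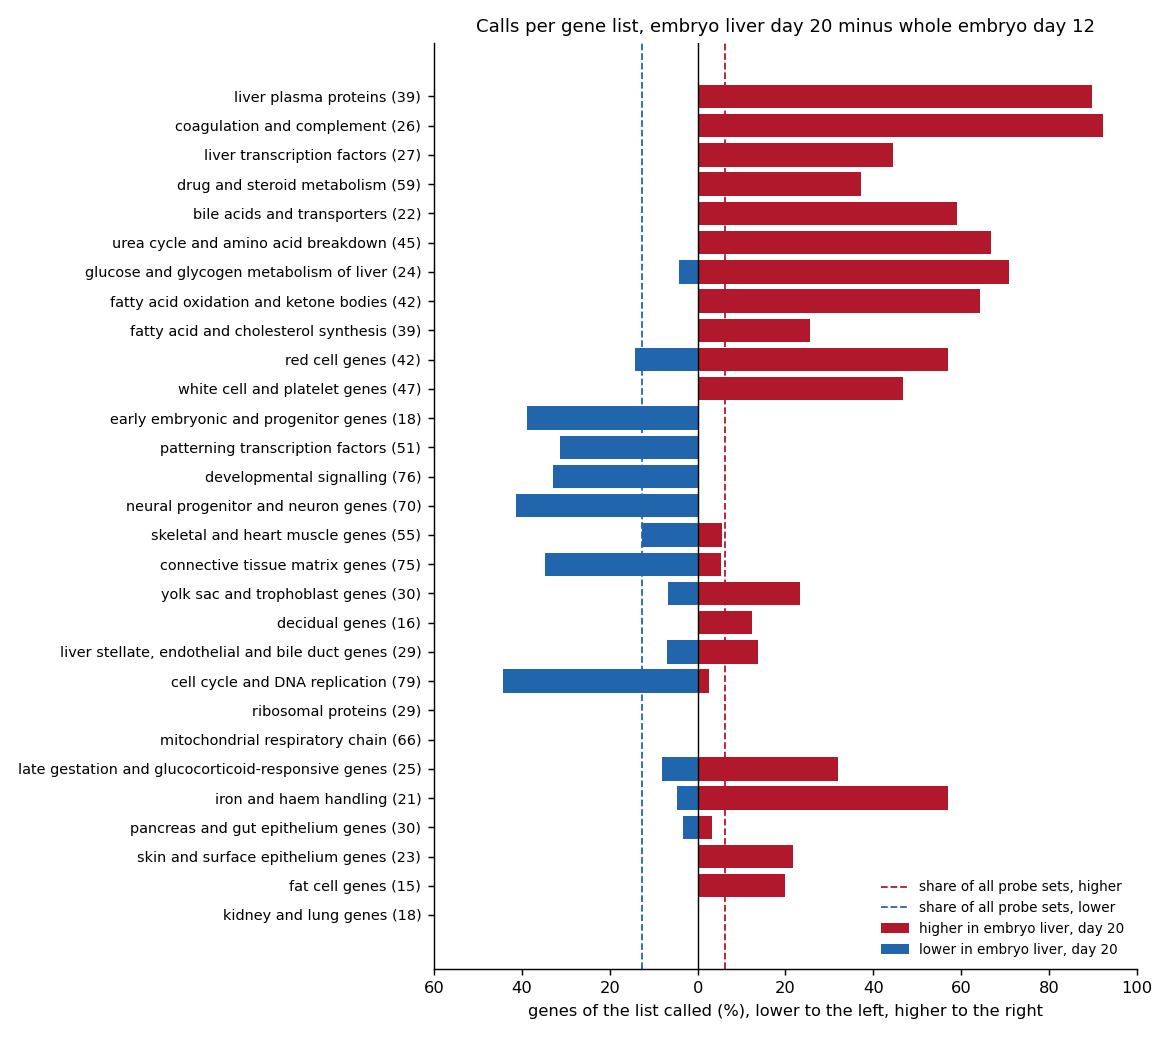
Share of the measured genes of each list (number in brackets) called higher (red, to the right) or lower (blue, to the left) in embryo liver day 20 against whole embryo day 12, in percent, with dashed lines at the shares over all probe sets. Plasma protein and coagulation lists reach 89.7% and 92.3% higher, against 6.18% of all probe sets and 7.43% of all named genes. The cell cycle list reaches 44.3% lower, against 12.7% and 13.9%. The lists count genes, each by its brightest probe set, so the shares of all named genes are the like measure.

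Arrays of 1 group did not all read alike, and several of them touch the hepatic results. Of the 981 probe sets that were higher in liver, the retinoic acid liver was the highest of the 4 livers for 491 (50.1%). The EMD150 liver was the lowest for 719 (73.3%). Of the 2011 that were lower in liver, it was the lowest for 1179 (58.6%). This array also had the smallest SD of the 9, 1.51. Bhmt read 11.85, 11.61, 10.52 and 11.78 and Fbp1 12.18, 11.92, 10.62 and 12.06 in the control, EMD50, EMD150 and retinoic acid livers, lowest in EMD150 for both. A2m ranged over 0.19 and Afp over 0.04 across the 4 livers. Each treatment had 1 liver array, so a drug effect and a difference of this array cannot be told apart. Without it, 35 plasma protein genes, 31 urea cycle and amino acid genes and 32 fatty acid oxidation genes rose, against 35, 30 and 27 with it.

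Among the whole embryos, RA5 was the highest for 423 of these 981 probe sets (43.1%) and RA56 for 147 (15.0%). RA56 was the highest for Alb, Ahsg, Itih3, C3 and Fabp1, by 0.91 to 1.81 over the nearest embryo. A2m in this embryo was 6.88, within the range of the others. Without the RA56 embryo, 35 plasma protein and 24 clotting and complement genes rose, the same counts as with it. Hbz, the embryonic globin, was 14.53 in this embryo, within the range of the others.

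Genes that liver shares with the yolk sac, the membrane that feeds the early embryo, followed another order of the whole embryos. Of 30 measured yolk sac and trophoblast genes, 7 rose (23.3%) and 2 fell (6.67%), against 7.43% and 13.9% of all named genes. The falls numbered 0 without the RA5 embryo or the retinoic acid liver. Apoa1, the main protein of high-density lipoprotein, read 14.11, 14.16, 14.17 and 14.07 in the livers and 11.08, 8.91, 7.86, 11.78 and 10.35 in the whole embryos. Rbp4, the retinol carrier of plasma, read 13.38, 13.18, 13.13 and 13.30 in the livers and 11.25, 8.58, 7.77, 11.71 and 10.64 in the whole embryos. Ttr, which carries thyroid hormone and Rbp4, read 14.44, 14.33, 14.29 and 14.33 in the livers and 12.02, 10.70, 10.18, 12.82 and 11.89 in the whole embryos. For all 3, the control, RA5 and RA56 embryos were high and the EMD50 and EMD150 embryos low, with ranges of 3.92, 3.94 and 2.64 over the 5 embryos. The differences were 4.29 (SE 0.51) for Apoa1, 3.44 (SE 0.50) for Rbp4 and 2.96 (SE 0.32) for Ttr. Apob rose 6.96-fold, but its other probe set gave 0.52. Krt18, a keratin of simple epithelia, rose 3.85-fold.

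Other yolk sac genes were also lowest in the EMD50 and EMD150 embryos. Cubn, the cubilin receptor with which yolk sac takes up protein, read 6.89, 6.84, 6.91 and 6.90 in the livers and 8.48, 7.32, 7.10, 9.52 and 8.55 in the whole embryos. It fell by 1.18 on the log2 scale, with an adjusted p of 0.008, and was no longer called without the RA5 embryo (-0.98) or without all retinoic acid arrays (-0.76). Krt19 read 7.98, 6.69, 6.84 and 7.11 in the livers and 9.40, 7.66, 7.23, 9.08 and 8.13 in the whole embryos, with overlapping groups. It fell by 1.10 and lost its call without the RA5 embryo (-0.95) or all retinoic acid arrays (-0.93). Ctsl, a lysosomal protease abundant in yolk sac, averaged 10.53 ± 0.52 in the livers and 10.82 ± 1.31 in the whole embryos, a difference of -0.08. The mean level of the 4 yolk sac markers (Cubn, Amn, Lrp2 and Apoa4) was 7.80 to 7.97 in the livers and 7.78 to 9.49 in the whole embryos. The part of yolk sac tissue in the levels of Apoa1, Rbp4 and Ttr at day 12 was not tested, nor was it for Afp and the fibrinogen chains.

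**Figure D3:**
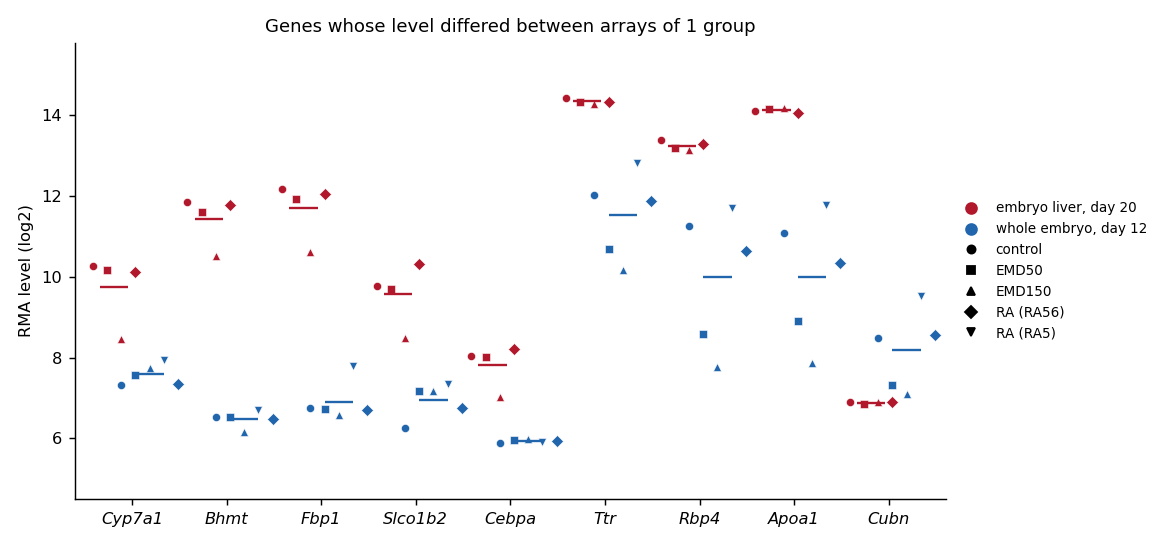
RMA level (log2) on each array of 9 genes that differed within a group, embryo liver day 20 (red, left) and whole embryo day 12 (blue, right), symbols by treatment, bars at the means. The EMD150 liver (triangle) is lowest of the livers for Cyp7a1, Bhmt, Fbp1, Slco1b2 and Cebpa; the EMD50 and EMD150 embryos are lowest for Ttr, Rbp4, Apoa1 and Cubn.

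Red cell genes both rose and fell. Of 42 measured, 24 rose (57.1%) and 6 fell (14.3%), against 7.43% and 13.9% of all named genes. The share of falls was thus near that of all genes. The globins split by stage. Hbz, the embryonic zeta chain of haemoglobin, read 8.05, 8.21, 7.94 and 8.01 in the livers and 14.72, 14.44, 14.33, 14.16 and 14.53 in the whole embryos. It was near the top of the scale in every day 12 embryo and showed the largest fall of all named genes, 84.4-fold, with a difference of -6.40 (SE 0.12, adjusted p = 5.6e-10). Hbg1, a gene of the embryonic beta-like chains, read 9.01, 9.65, 10.46 and 9.76 in the livers and 14.17, 13.97, 14.19, 13.98 and 14.27 in the whole embryos. Its fall was 21-fold, and the liver values ranged over 1.45 log2 units.

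Hbe1, the epsilon chain, read 12.02, 12.13, 11.57 and 12.20 in the livers and 14.61, 14.50, 14.69, 14.43 and 14.75 in the whole embryos, a 6.05-fold fall. Its lowest liver level was 11.57, in EMD150. Hbb, the adult beta chain, read 14.89, 14.91, 14.83 and 14.83 in the livers and 11.12, 10.27, 9.89, 9.71 and 10.51 in the whole embryos. It went the other way, a 23.1-fold rise with a difference of 4.53 (SE 0.20, adjusted p = 9.5e-08). Beta-like globins are near-identical copies in the rat, so a probe set may read more than 1 of them.

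The promoter of Hbb is shown because this gene rose while its embryonic relatives fell. Its window is chr1:167663672-167663971 (RefSeq, GRCr8, minus strand, 5′ to 3′ along the gene). Capitals mark CCACACCC, the CACCC box that the red cell factor KLF1 is known to bind, which starts 98 bases before the gene start. The same letters, searched on both strands, were present in 2 of 32 red cell promoters (6.25%). The share was 3.73% for measured genes and 3.23% for all promoters. It was 5.88% for cell cycle genes and 8.82% for genes that fell at least 8-fold, so the red cell share did not stand out. The GATA motif, AGATAA on either strand, was present in 15.6% of the red cell promoters, 7.05% of those of measured genes and 11.3% of all. Plasma protein promoters held it in 16.7% and genes that rose at least 8-fold in 14.2%, so it was not particular to red cell genes. GTTAAT was present in none of the 32.
Hbb: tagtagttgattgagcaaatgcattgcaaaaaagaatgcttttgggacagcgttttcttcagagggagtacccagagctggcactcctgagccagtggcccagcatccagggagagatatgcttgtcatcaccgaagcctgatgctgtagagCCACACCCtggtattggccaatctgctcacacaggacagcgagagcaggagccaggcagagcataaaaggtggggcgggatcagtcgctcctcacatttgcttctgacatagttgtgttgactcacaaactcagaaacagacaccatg

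Genes of the maturing red cell rose with Hbb. Slc4a1, band 3, the anion exchanger of the red cell membrane, read 12.83, 12.84, 12.66 and 12.74 in the livers and 10.14, 9.63, 9.45, 9.14 and 9.99 in the whole embryos. Alas2, the first enzyme of haem synthesis in red cells, averaged 13.58 ± 0.15 in the livers and 11.29 ± 0.48 in the whole embryos and rose 4.79-fold. Gata1, the factor that drives red cell genes, read 9.55, 9.54, 9.57 and 9.87 in the livers and 7.51, 7.63, 7.72, 7.56 and 7.44 in the whole embryos, a 4.2-fold rise.

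Carbonic anhydrase Car1 rose 19-fold and Car2 8.58-fold. Nfe2, a factor of globin and platelet genes, rose 11.8-fold and Rhag, a membrane channel of the Rhesus complex, 5.69-fold. Slc2a1, the glucose transporter of red cells and many embryonic tissues, averaged 10.01 ± 0.08 in the livers and 11.85 ± 0.34 in the whole embryos and fell by 1.82. Bpgm, which makes the regulator of oxygen release 2,3-bisphosphoglycerate, fell by 1.46. Prdx2, an antioxidant enzyme abundant in red cells, read 13.34, 13.42, 13.42 and 13.22 in the livers and 13.42, 13.19, 13.10, 12.77 and 13.26 in the whole embryos, overlapped and did not pass, at 0.17.

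**Figure D4:**
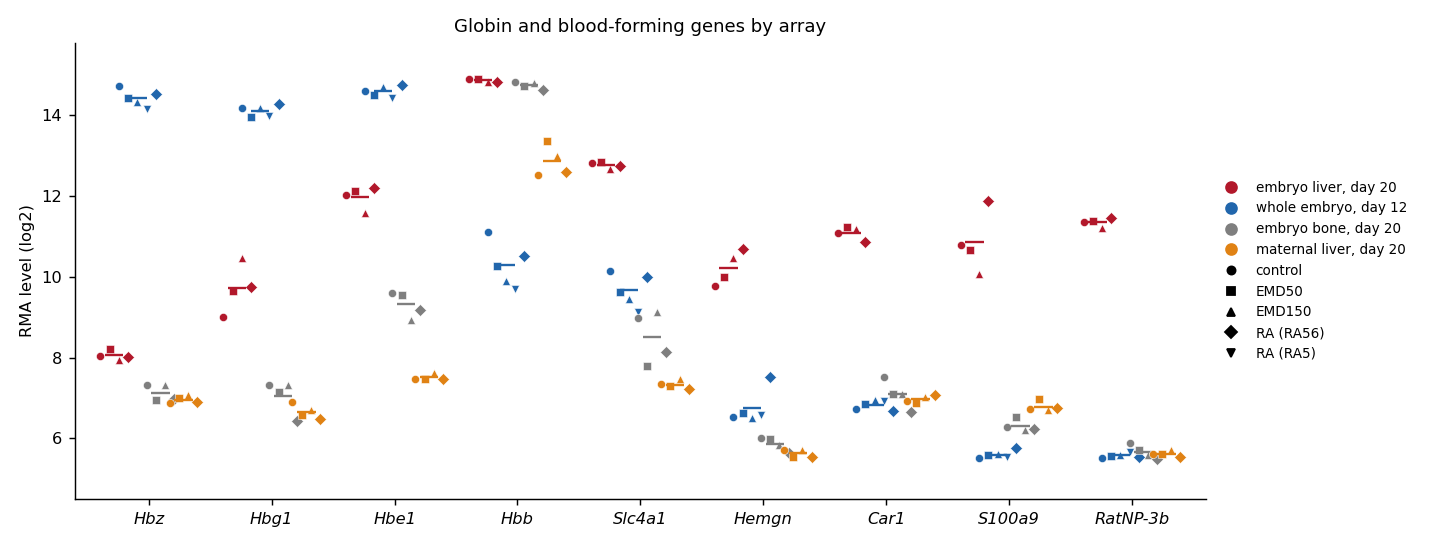
RMA level (log2) of 9 globin and blood-forming genes on each array, in embryo liver day 20 (red), whole embryo day 12 (blue), embryo bone day 20 (grey) and maternal liver day 20 (orange), from left to right within a gene, symbols by treatment, bars at the means. Hbz, Hbg1 and Hbe1 are highest in whole embryos, Hbb lies at 14.62 or above in every array of embryo liver and embryo bone, and RatNP-3b lies above 11 only in embryo liver.

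White cell and platelet genes rose in 22 of 47 cases and none fell, with a median of 0.89. RatNP-3b, a defensin of neutrophil granules, read 11.35, 11.38, 11.22 and 11.45 in the livers and 5.51, 5.57, 5.58, 5.67 and 5.55 in the whole embryos, a 55.4-fold rise. Np4, a related defensin, rose 49.7-fold. S100a9, a calcium-binding protein of neutrophils, read 10.80, 10.67, 10.07 and 11.88 in the livers and 5.51, 5.58, 5.62, 5.53 and 5.75 in the whole embryos. Its livers spread over 1.81 log2 units, highest with retinoic acid and lowest with EMD150, and so were those of its partner S100a8 (8.60, 8.92, 7.63 and 10.03). The rises were 40.5-fold and 11.8-fold.

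Macrophage genes rose too. Lyz2, lysozyme, averaged 12.52 ± 0.21 in the livers and 8.79 ± 0.37 in the whole embryos and rose 13.5-fold, and C1qa, a complement subunit made by macrophages, rose 8.21-fold. Pf4, a platelet chemokine, rose 5.09-fold, at 11.60 ± 0.25 in the livers and 9.27 ± 0.31 in the whole embryos. Of 29 stellate, endothelial and bile duct genes, 4 rose (13.8%) and 2 fell (6.9%), against 7.43% and 13.9% of all named genes. The falls numbered 1 without the RA5 embryo or the retinoic acid liver. Of the 4 stellate markers, Reln rose 3.12-fold, with 0.85 from its other probe set, and Ngfr, a neurotrophin receptor also found on nerves, fell by 1.25. Des and Lrat, the others, differed by -0.32 and 0.79 and were not called. Of the 3 endothelial markers, Lyve1 of the sinusoids rose 3.26-fold, and Pecam1 and Kdr, at -0.03 and -0.55, were not called. Of the 3 bile duct markers, Krt19 fell, with the limits given above, and Krt7 and Epcam were not called.

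Genes of the growing body plan fell in part. Of 18 early embryonic and progenitor genes, 7 fell (38.9%, against 13.9% of all named genes). None rose, 11 were not called, and the median was -0.46. Mycn, the oncogene that keeps progenitors dividing, read 7.03, 7.06, 7.39 and 6.89 in the livers and 10.79, 10.54, 10.28, 10.22 and 10.57 in the whole embryos, a difference of -3.42 (SE 0.15, adjusted p = 9.1e-08). Crabp2 and Crabp1 bind retinoic acid inside cells. Crabp2 read 6.43, 6.41, 6.90 and 6.48 in the livers and 10.72, 10.91, 11.02, 10.80 and 11.66 in the whole embryos, and its fall was 21.7-fold. It was highest in the RA56 embryo, while RA5 lay within the range of the others. Crabp1 fell 13.1-fold, and its EMD150 liver was highest of the livers at 9.03.

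Hmga1, a chromatin protein of undifferentiated cells, fell 4.85-fold, and Plagl1, an imprinted growth regulator, 5.35-fold. Mest, another imprinted gene, averaged 11.24 ± 0.17 in the livers and 13.21 ± 0.08 in the whole embryos and fell by 1.95. H19, an imprinted RNA without protein, did not follow. It read 14.15, 14.11, 14.12 and 14.04 in the livers and 13.41, 13.08, 13.11, 13.63 and 13.30 in the whole embryos, all livers above all embryos, with a difference of 0.82 (SE 0.11, adjusted p = 0.00012) that missed the 2-fold limit as deposited and reached 1.33 under median and SD scaling. Cdkn1c, an imprinted brake on the cell cycle, read 11.80, 11.63, 10.52 and 12.19 in the livers and 12.38, 11.92, 11.83, 12.18 and 12.41 in the whole embryos and did not pass, at -0.53.

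**Figure D5:**
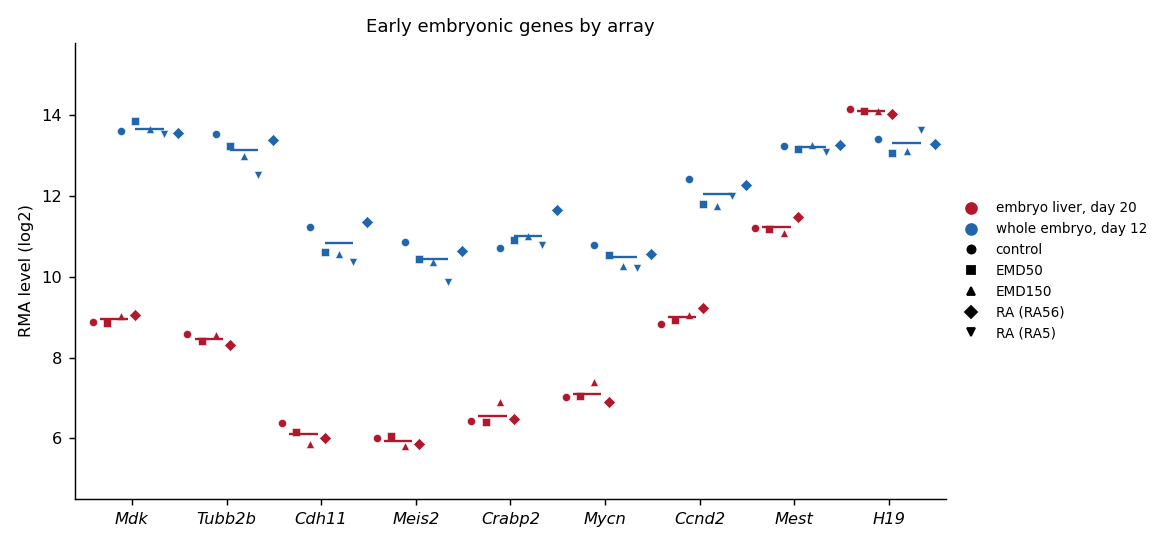
RMA level (log2) of 9 genes of the early embryo on each array, embryo liver day 20 (red, left) and whole embryo day 12 (blue, right), symbols by treatment, bars at the means. The first 8 genes are lower in every liver than in any embryo; H19 is above 13 in all 9 arrays.

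Patterning transcription factors fell in 16 of 51 cases (31.4%, against 13.9% of all named genes). None rose, and 35 were not called. Meis2, a cofactor of Hox proteins in limb and hindbrain, read 6.0, 6.06, 5.81 and 5.85 in the livers and 10.87, 10.43, 10.38, 9.88 and 10.65 in the whole embryos, a 23.4-fold fall. Nr2f2 and Nr2f1, orphan receptors of mesenchyme and neural tissue, fell 8.13-fold and 6.65-fold, and Lhx2, of forebrain and limb, 5.5-fold. The RA5 embryo was lowest of the embryos for all 4. Over all 2011 probe sets lower in liver, it was the lowest embryo for 1298 (64.5%) and the control embryo the highest for 1121 (55.7%).

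Developmental signalling fell in 25 of 76 cases (32.9%, against 13.9% of all named genes) and none rose. Mdk, midkine, a growth factor of mid-gestation, read 8.89, 8.86, 9.04 and 9.05 in the livers and 13.62, 13.85, 13.67, 13.55 and 13.56 in the whole embryos, a 25.9-fold fall with embryos and livers each within 0.30. Ptn, its only close relative, read 6.68, 6.47, 5.90 and 7.09 in the livers and 10.37, 10.21, 10.32, 10.15 and 10.54 in the whole embryos. Its livers ranged over 1.19 log2 units and the embryos over 0.39, without overlap. Fzd2, a Wnt receptor, fell 12.7-fold. The secreted Wnt regulators Sfrp1 and Sfrp2 fell 8.4-fold and 6.46-fold, and Epha4, a guidance receptor, 8.4-fold.

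Neural genes fell in 29 of 70 cases (41.4%, against 13.9% of all named genes) and none rose. Tubb2b, a tubulin of young neurons, read 8.58, 8.40, 8.55 and 8.31 in the livers and 13.54, 13.24, 13, 12.53 and 13.40 in the whole embryos, a 26.3-fold fall. Sox11, a factor of new neurons, read 5.65, 5.72, 5.95 and 5.70 in the livers and 10.34, 8.88, 9.25, 8.63 and 9.75 in the whole embryos, with a range of 1.71 among the embryos. Nes, the filament of neural stem cells, averaged 8.23 ± 0.14 in the livers and 11.10 ± 0.53 in the whole embryos and fell by 2.92. Nefm, a neurofilament, fell 11.1-fold, Stmn2, of growing axons, 6.36-fold and Nnat, neuronatin, 15.3-fold. Tubb3 fell 16-fold by its brighter probe set, and the other gave 0.44.

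Connective tissue genes fell in 26 of 75 cases (34.7%) and rose in 4 (5.33%), against 13.9% and 7.43% of all named genes. Cdh11, the cadherin of mesenchyme, read 6.39, 6.15, 5.87 and 6.0 in the livers and 11.24, 10.61, 10.56, 10.37 and 11.37 in the whole embryos, a 26.5-fold fall. Col2a1, the collagen of cartilage, fell 15.1-fold by its brighter probe set, and the other gave -0.09. Lum, lumican, averaged 7.12 ± 0.26 in the livers and 10.25 ± 0.79 in the whole embryos and fell by 3.0. Fn1, fibronectin, which hepatocytes secrete into plasma, rose 2.32-fold, at 13.18 ± 0.27 in the livers and 12 ± 0.32 in the whole embryos, and Col6a3 rose 2.92-fold. Col1a1, the main collagen of bone and skin, read 10.59, 10, 10.17 and 10.68 in the livers and 11.61, 10.58, 10.58, 12.79 and 11.56 in the whole embryos. The groups overlapped, and its difference of -0.92 (SE 0.25, adjusted p = 0.0092) missed the 2-fold limit, which it passed at -1.06 without the block and at -1.03 to -1.08 without some single arrays. Its other probe set gave -0.17.

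Muscle genes fell in 7 of 55 cases and rose in 3, with shares of 12.7% and 5.45% that lay near those of all named genes (13.9% and 7.43%). Leaving out 1 array at a time gave 2 to 5 rises and 6 to 7 falls, with 5 rises without the retinoic acid liver. Myl7, the atrial myosin light chain, read 6.65, 6.67, 6.95 and 6.57 in the livers and 9.57, 10, 9.86, 9.11 and 9.85 in the whole embryos, an 8.06-fold fall. Tnnt2, the cardiac troponin T, fell 7.25-fold, while a dimmer probe set gave 0.20. The 3 that rose were Tnni1, Myl1 and Ckm. Tnni1, slow troponin I, read 11.56, 11.75, 10.61 and 11.79 in the livers and 9.59, 9.70, 9.52, 9.50 and 9.46 in the whole embryos. Myl1, a fast myosin light chain, read 8.69, 9.29, 7.84 and 7.90 in the livers and 6.85, 6.80, 6.69, 6.27 and 6.92 in the whole embryos, with the control and EMD50 livers highest. Ckm, muscle creatine kinase, rose 2.06-fold and lost its call under 4 of the 9 omissions of 1 array, at 0.93 to 0.99, and under both rescalings, at 0.98 and 0.99.

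Cell cycle and DNA replication genes fell in 35 of 79 cases (44.3%) and rose in 2 (2.53%), against 13.9% and 7.43% of all named genes. Their median was -0.93. Ccnd2, a D-type cyclin, read 8.84, 8.93, 9.06 and 9.23 in the livers and 12.42, 11.80, 11.76, 12.01 and 12.27 in the whole embryos, an 8.04-fold fall. Ccnd1 fell 6.47-fold, their partner kinase Cdk4 3.69-fold and E2f5, a factor of cell cycle entry and exit, 7.2-fold. Pcna, the sliding clamp of DNA polymerase, averaged 12.04 ± 0.08 in the livers and 12.78 ± 0.12 in the whole embryos and did not pass, at -0.74. The genes that rose were Cdc25b, a phosphatase that starts mitosis, at 11.70, 11.76, 11.62 and 11.64 in the livers and 9.73, 9.53, 9.60, 9.16 and 9.91 in the whole embryos, and Cdkn2c, an inhibitor of Cdk4, with a difference of 1.14. Leaving out 1 array at a time gave 29 to 38 falls and 1 to 2 rises, and Cdkn2c lost its call without the control liver or the control embryo (1.0).

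Housekeeping lists had no calls. None of 29 ribosomal protein genes and none of 66 respiratory chain genes reached 2-fold in limma's test. An adjusted p under 0.05 was met by 25 and 11 of them, against 10817 of all 15866 probe sets (68.2%). An unadjusted p under 0.05 was met by 27 and 14 of them, against 11394 of all probe sets. The ribosomal median was -0.48 as deposited, -0.32 under quantile normalization and -0.07 under median and SD scaling. The respiratory chain median was 0.06, 0.31 and 0.34 under the same settings. Rps29 averaged 13.89 ± 0.06 in the livers and 14.09 ± 0.10 in the whole embryos, and Atp5f1b, a subunit of ATP synthase, 13.48 ± 0.10 in the livers and 13.33 ± 0.09 in the whole embryos.

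Markers of other tissues that a dissected liver could carry were compared next. The mean of 4 acinar pancreas markers was 7.71 to 7.82 in the livers and 6.85 to 7.22 in the whole embryos. That of 3 kidney and lung markers was 7.14 to 7.66 in the livers and 6.59 to 6.93 in the whole embryos. None of 18 kidney and lung genes was called by limma. An unadjusted p under 0.05 was met by 14 of them, and by 11394 of all 15866 probe sets. Of 23 skin genes, 5 rose (21.7%, against 7.43% of all named genes). Krt10, a keratin of the outer skin, read 8.37, 6.35, 7.31 and 7.54 in the livers and 6.30, 5.85, 5.81, 5.99 and 6.23 in the whole embryos, against 12.22 ± 0.86 in embryo bone (SD, n = 4), and was highest in the control liver. Leaving out 1 array at a time gave 2 to 6 rises of skin genes, with 2 without the control liver or the control embryo. Cldn1, a tight junction protein of bile canaliculi as well as skin, rose 7.08-fold. Of 30 pancreas and gut genes 1 rose and 1 fell (3.33% each, against 7.43% and 13.9% of all named genes). The rises numbered 2 without the EMD50 or EMD150 liver or without the EMD50, EMD150 or RA5 embryo. Of 15 fat cell genes 3 rose (20.0%), and of 16 decidual genes 2 rose (12.5%), against 7.43% of all named genes. Whether skin or muscle came with the dissected livers was not tested.

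Embryo bone of day 20 shares the day with embryo liver and so shows which differences were also found between day 20 tissues. Both comparisons share the embryo liver arrays. Between embryo liver and embryo bone, 2100 of 15866 probe sets were called (13.2%), 764 higher in liver (4.82%) and 1336 lower (8.42%). Of the plasma proteins, 35 of 39 were higher in liver than in bone, and of the clotting and complement genes 22 of 26. Alb in bone read 13.60, 10.70, 9.44 and 13.60 in control, EMD50, EMD150 and retinoic acid, and Afp 12.34, 7.82, 7.66 and 7.58. The control bone was the highest for Afp by 4.52, and without it the liver minus bone difference of Afp was 6.87, against 5.81 with it. The numbers of plasma protein and clotting genes that were higher in liver stayed at 35 and 22.

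Globins were also measured in embryo bone. Hbb in bone read 14.83, 14.73, 14.81 and 14.62, and liver minus bone was 0.12 (SE 0.20, adjusted p = 0.66), a difference that missed the threshold and does not show equal levels. Hbz averaged 7.13 ± 0.21 in bone, and Hbe1 9.32 ± 0.33, where liver exceeded bone by 2.66 (adjusted p = 3.9e-08). Hemgn was 5.86 ± 0.17 in bone, and liver was higher by 4.37. Of the red cell genes, 27 of 42 were higher in liver than in bone and 1 lower. RatNP-3b, at 5.66 ± 0.17 in bone, was higher in liver by 5.69.

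Matrix and muscle genes were lower in liver than in bone. Of 75 matrix genes, 61 were lower than in bone, and of 55 muscle genes 31. Cdh11 averaged 6.10 ± 0.22 in embryo liver and 11.35 ± 0.50 in bone, and Col2a1 6.93 ± 0.45 in embryo liver and 12.89 ± 0.49 in bone. Mycn averaged 7.09 ± 0.21 in embryo liver and 7.85 ± 0.39 in bone, a difference of -0.76 that was under 2-fold, and Hmga1 differed by 0.38. Cell cycle genes were higher in liver than in bone in 8 of 79 cases and lower in 4.

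Maternal liver of day 20 placed embryo liver against the adult organ. Of 15866 probe sets, 1405 were called (8.86%), 487 higher in the liver of the embryo (3.07%) and 918 lower (5.79%). Alb, Ahsg and Cps1 were not called, which does not show equal levels. Alb was 14.96 ± 0.02 in embryo liver and 15.18 ± 0.04 in maternal liver, a difference of -0.23 (SE 0.09, adjusted p = 0.092), Ahsg differed by 0.01 (SE 0.09) and Cps1 by -0.21 (SE 0.12). Over the whole list 5 of 39 plasma protein genes were higher in embryo liver and 19 lower.

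Bile acid genes were lower in 14 of 22 cases and higher in none. Baat was 9.03 ± 0.34 in embryo liver and 12.08 ± 0.31 in maternal liver, Slc10a1 9.0 ± 0.71 in embryo liver and 11.82 ± 0.11 in maternal liver. Cyp7a1 was 9.75 ± 0.87 in embryo liver and 11.86 ± 0.38 in maternal liver. Drug metabolism genes were lower in 34 of 59 cases. Embryo liver minus maternal liver was -2.38 for Fabp1 and -1.47 for Hnf4a. For the means of these 5 genes the embryo liver lay between whole embryo and maternal liver.

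Genes that were higher in the embryo liver than in the mother's were of other kinds. Afp exceeded the maternal level by 5.65 (SE 0.14) and Hdc by 7.0 (SE 0.09), with Hdc at 6.63 ± 0.15 in maternal liver. Igf2 was 14.18 ± 0.08 in embryo liver and 7.94 ± 0.16 in maternal liver, and H19 14.11 ± 0.04 in embryo liver and 8.79 ± 0.86 in maternal liver. Hamp was 11.92 ± 0.56 in embryo liver and 8.71 ± 0.40 in maternal liver of day 20, and A2m 14.27 ± 0.08 in embryo liver and 12.49 ± 0.50 in maternal liver. Cell cycle genes were higher in 50 of 79 cases and red cell genes in 29 of 42, and none of either list was lower. Cell cycle genes in embryo liver thus lay below whole embryo in 35 cases and above maternal liver in 50. Pcna was 12.04 ± 0.08 in embryo liver and 9.57 ± 0.29 in maternal liver, a difference of 2.47 (SE 0.12).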

How the data were processed

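Total RNA of 22 rat samples was measured on 1 array each. The submitters' processing notes name RMA, and the deposited values are the authors' log2 probe set levels. The sources used here give neither an RMA version nor any pooling of samples. Array levels flatten near the bottom and top of the scale, where differences can be understated. The number of arrays limits the precision.

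From these values, 57 array controls were left out and 15866 probe sets tested without a filter. The probe table of the platform gave 1 gene symbol for 12783, several for 312 and none for 2771. The RefSeq gene table (GRCr8) held 12748 of the Entrez IDs and changed no symbol. A gene was represented by the probe set with the highest mean over the 9 arrays. limma 3.58.1 in R 4.3.3 (lmFit, eBayes with an intensity trend) compared the 4 embryo livers with the 5 whole embryos with treatment as a block, leaving 4 residual degrees of freedom. Treatment blocks are not animal pairs: the labels give no replicate numbers, dams or litters. Tests were two-sided, with Benjamini-Hochberg adjustment over all probe sets, and calls needed an adjusted p under 0.05 and 2-fold. Embryo bone (13 arrays with the whole embryos) and maternal liver of day 20 (8 arrays) were compared in the same way.

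Genes named are Alb, Afp and Hemgn, up to 6 called genes per direction of each of 29 gene lists (1081 measured genes), up to 25 called genes per direction overall with groups that do not overlap, up to 2 bright members of a list that did not pass, and the cell type markers. The members and lists were chosen with earlier results of these data known. On simulated data with 200 of 15866 probe sets changed by 1.5, 2 or 3 log2 units, 100% were recovered, with 0, 1 and 1 false calls. These sizes lay above the 2-fold limit, and far fewer probe sets were changed than in the real data. The simulation therefore checks the code and does not measure the error rate of the calls. Alternatives were no replicate block, all 22 arrays in 1 model, other scalings, filters on dim probe sets, no trend, limma's treat, and omission of arrays. For genes with several probe sets, the mean over all of them was also taken. Promoter windows are RefSeq's. Summaries used Python 3.11.15 with pandas 2.3.3, numpy 2.4.6 and matplotlib 3.10.9.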

Additional observations from a re-analysis of the deposited data

Results flagged for a closer look

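A value was marked where 1 array of a group lay far from the others by Dixon's ratio, tested at its usual critical value. Of 344 sets of values tested, 28 were marked, and chance alone marks about 1 in 20. The EMD150 array accounted for 12 of these, all in embryo liver.

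Among the embryo livers, EMD150 was lowest for Itih3 (13.68, nearest 13.93), Gc (13.44), Cebpb (7.94, nearest 8.83), Cebpa (7.03, nearest 8.02), Cth (11.07, nearest 11.88), Hpd (11.93), Cyp7a1 (8.45, nearest 10.11), Hp (13.76), Hamp (11.09, nearest 12.08), Pf4 (11.22, nearest 11.69) and Krt18 (10.85). It was highest for Crabp2 (6.90, nearest 6.48). The retinoic acid liver was highest for Apoh (13.93, nearest 13.14) and Gata1 (9.87), and lowest for Hdc (13.41, nearest 13.70) and Nes (8.03). The control liver had the lowest mean of early embryonic and progenitor genes (8.50, nearest 8.54).

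Among the whole embryos, RA56 was highest for Hemgn (7.53, nearest 6.62), Fabp1 (7.84, nearest 6.55) and Hpx (9.26, nearest 8.01). RA5 was highest for A2m (7.43, nearest 6.93), Fbp1 (7.78, nearest 6.74), Pygl (8.76, nearest 7.92) and Col6a3 (7.94, nearest 7.35), lowest for Cdk4 (12.83, nearest 13.07), and highest for the mean of decidual genes (7.84, nearest 7.44) and of late gestation and glucocorticoid-responsive genes (8.05, nearest 7.80). The control embryo was lowest for Baat (5.92, nearest 6.14).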

How the results depend on the processing

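Of 2992 probe sets called between embryo liver and whole embryo, the count was 3008 with no replicate block, 2976 with all 22 arrays in 1 model, 2737 after quantile normalization, 2803 after median and SD scaling, 2990 without the intensity trend, and 2864 and 2281 with filters at the 25th percentile and the median. It was 1463 under limma's treat against a 2-fold difference and 10817 at the adjusted p alone, which a stricter and a looser rule give by construction. Leaving out 1 array at a time gave 2762 to 3186, leaving out the EMD150 arrays 3022 and the retinoic acid arrays 3151. The share of calls that were higher was 32.8% as deposited, 40.7% after quantile normalization and 36.9% after median and SD scaling; the cause was not tested. The labels give no replicate numbers, so the block is the treatment and no animals are paired. For 143 genes of the text none of 2714 recomputed differences was reversed, 26 lost a call and 13 gained one. Most of these genes were picked by their differences on these same arrays, so the lack of reversals follows largely from the selection. Dimmer probe sets were not counted on their own, and those of Tubb3 and Tnnt2, for example, had the opposite sign (0.44 and 0.20). Taking the mean over all probe sets of a gene, in place of the brightest, left 7 differences the same and moved 21 in size. Among those moved, Fgb shrank to 2.47 and Tubb3 to -1.78, while Acsl1 grew to 3.29. Fold changes given above therefore hold for the brightest probe set. Under treat, 12 genes lost their call, Afp among them. Genes that gained a call were Igf2, Xbp1, Got2, Hadha, H19 and Col1a1. Those that lost a call in a setting other than treat were Ckm, Cdkn2c, Krt19 and Cubn. The liver minus bone count was 2220 without the control bone and 2060 without the EMD50 bone, both omissions added after the data were seen, as were the counts of lists without 1 array. It was 2097 from the 8 liver and bone arrays alone, against 2100, and the liver minus maternal liver count was 1403 from all 22 arrays, against 1405. Differences of dim probe sets may be understated.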
